A study of Mus musculus with 4 samples.

Results

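Paired immunoreceptors are surface proteins of myeloid cells that come as related activating and inhibitory forms. The 10 genes described here were taken by symbol and cover the PILR receptors (Pilra, Pilrb1 and Pilrb2), the inhibitory receptors Pirb, Sirpa and Siglece, the TREM receptors (Trem1, Trem2 and Trem3) and Tyrobp, which encodes the adaptor DAP12. Each had 1 probe set on the array, and they are 10 of the 26246 named genes that were tested. All 10 were found, and no filter on signal was applied.

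The RNA came from the mouse line J774M, classed by its labels as myeloid-derived suppressor cells, which are immature myeloid cells that restrain T cells. The 4 whole-transcript arrays fell into 2 groups of 2, J774M cells given 10 uM of the neutral ceramidase inhibitor NC06 for 24 h and J774M control cells, for which the sources used here name no treatment of their own. All cells were grown in RPMI medium with serum. Nothing in the labels tells whether replicate arrays stem from separate cultures. The p-values therefore cover only the spread between these samples, and that spread may be technical. Each value is a log2 signal, and the median over all probe sets was 4.75 and 4.74 on the NC06 arrays, against 4.68 and 4.67 on the control arrays. Having 2 arrays in each group is what limits precision throughout.

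The labelled cell type was set against 12 macrophage markers. Csf1r, the receptor for macrophage colony-stimulating factor, had 11.50 and 11.59 log2 on the NC06 arrays, against 11.43 and 11.49 on the control arrays, and Cd68 had 12.03 and 12.05, against 11.77 and 11.88. Of the 12, Cd163 and Mrc1 stood below the median signal of the tested genes. Of 12 neutrophil markers, 6 were below that median, among them S100a9, Ngp, Camp, Elane and Mpo. As many genes lie below a median as above it, so this count is no sign of absence. Lcn2, a neutrophil marker above it, had 10.68 and 10.55 log2 on the NC06 arrays, against 9.27 and 9.46 on the control arrays. The markers of NK cells (6 of 7), B cells (5 of 6), T cells (5 of 7) and dendritic cells (5 of 7) were mostly below the median. Of 10 osteoclast markers, 5 were. Those above the median included the dendritic cell marker Cd209a, at 9.93 log2 on NC06 replicate 1. The B cell marker Ighm and the T cell marker Cd28 stood above it too, at 11.56 and 8.73 log2 on that array.

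Inhibitory receptors of this kind carry tyrosine motifs (ITIMs) in their tails that recruit the phosphatases SHP-1 and SHP-2, encoded by Ptpn6 and Ptpn11. The activating forms among the genes described here have short tails and pair with DAP12, whose ITAM motif recruits the kinase SYK. PILR receptors bind sialylated glycoproteins, SIRP-alpha binds CD47 and holds back phagocytosis, Siglec-E binds sialic acids, and PIR-B binds MHC class I. TREM1 amplifies inflammatory signals in neutrophils and monocytes, while TREM2 senses lipids and supports phagocytosis in macrophages and microglia.

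The comparison sets expression in cells given NC06 beside that in control cells. Whether control cells received the solvent is not given, so inhibitor and solvent cannot be told apart here. The PILR genes and Trem1 were higher on the NC06 arrays, by 0.99 to 1.49 log2. The other 6 genes differed by -0.22 to 0.20 log2. In the limma fit over all 26246 genes, 0 of the 10 members passed an adjusted p of 0.05, as did 0% of all genes. At an unadjusted p under 0.05, 4 members were higher, where 7.79% of all genes were, and 0 were lower, where 7.52% of all genes were. An adjusted p under 0.10 took in 3 of them, Pilra, Pilrb1 and Trem1, and 0.293% of all genes on the higher side. The same 3 were higher by at least 1 log2, which held for 0.229% of all genes. The members were chosen with earlier results of these data known, so their counts beside these shares are a description and no test.

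In 7 members each NC06 array exceeded each control array, against 23.3% of all genes, and in 1 member each was below, against 24.4% of all genes. The groups overlapped in the remaining 2, Pirb and Siglece. The median difference was 0.19 log2 over the members and 0.002 log2 over all genes. In these bulk samples, a change in the number of cells that carry a transcript and a change in the RNA per cell cannot be told apart.

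**Figure D1:**
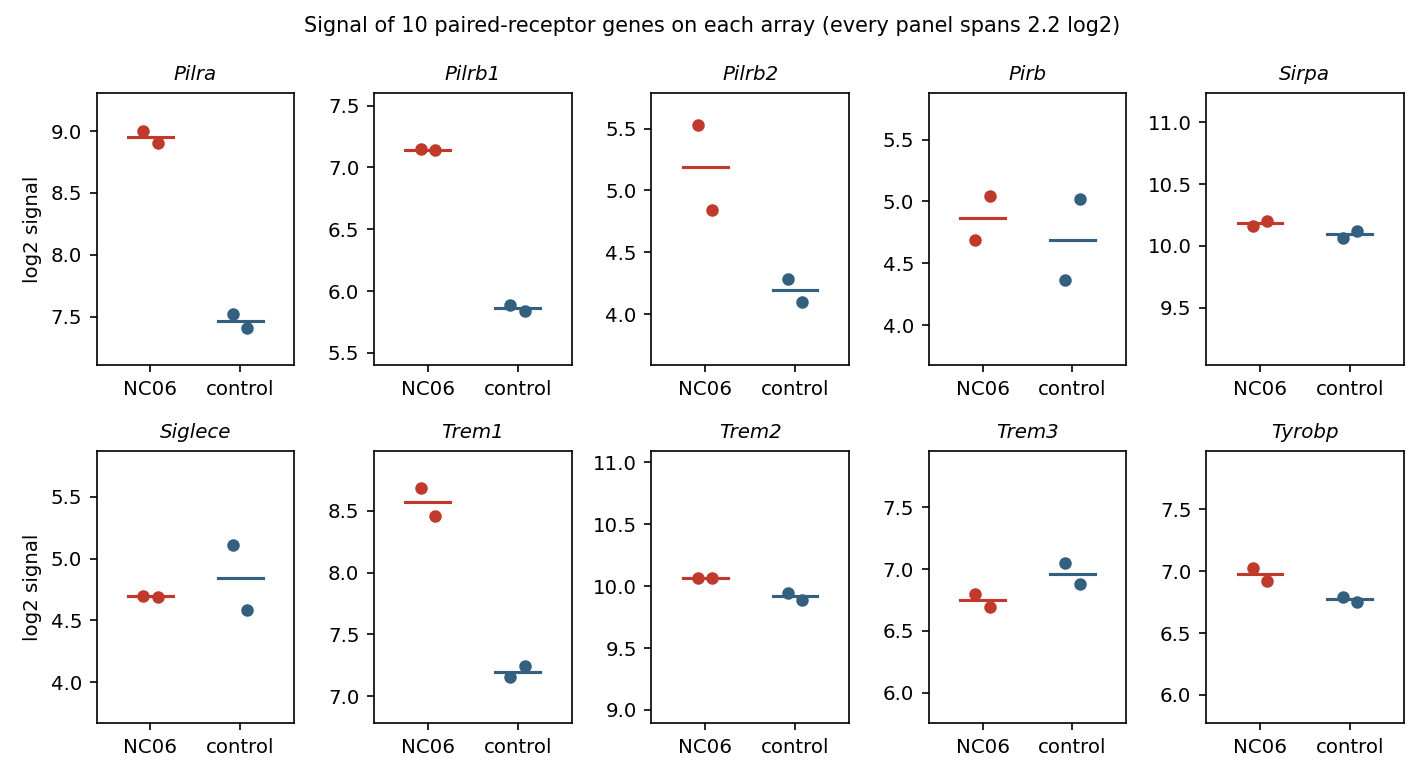
Log2 signal of each of the 10 genes on the 2 NC06 and 2 control arrays, with a line at the group mean. Points are single arrays, and every panel spans the same range of log2 signal, so that the separation of the groups in Pilra, Pilrb1, Pilrb2 and Trem1 can be compared with the small steps in Sirpa, Trem2, Trem3 and Tyrobp.

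Pilra encodes the inhibitory member of the PILR pair, whose tail carries ITIMs. Its probe set, 17454166, read 9.003 and 8.908 log2 on the NC06 arrays, against 7.518 and 7.411 on the control arrays. Both NC06 arrays were high, and the spread within each group was small beside the step between the groups. The group means were 8.96 ± 0.067 log2 in NC06 cells and 7.46 ± 0.076 log2 in control cells (SD, n = 2 each). The difference was 1.49 log2 (SE 0.089, 95% interval from 1.25 to 1.73), or 2.81-fold, with an unadjusted p of 3.92e-05 and an adjusted p of 0.0542 in limma. It had the 18th largest increase of all tested genes.

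Pilrb1 encodes an activating partner that signals through DAP12. Its probe set, 17454179, had 7.15 and 7.14 log2 on the NC06 arrays, against 5.89 and 5.84 on the control arrays. The arrays of each group nearly coincided, and the groups were well apart. The means were 7.14 ± 0.0079 log2 in NC06 cells and 5.86 ± 0.033 log2 in control cells (SD, n = 2 each). The difference was 1.28 log2 (SE 0.076, 95% interval from 1.08 to 1.48), or 2.43-fold, at an adjusted p of 0.0542 in limma.

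Pilrb2 encodes a further activating PILR protein. Its probe set, 17454187, had 5.53 and 4.84 log2 on the NC06 arrays, against 4.29 and 4.10 on the control arrays. In control cells the signal was under the array median, and the NC06 arrays differed from each other by more than the control arrays did. The difference was 0.99 log2 (SE 0.25, 95% interval from 0.31 to 1.68), or 1.99-fold, with an unadjusted p of 0.0146 and an adjusted p of 0.243 in limma. Without NC06 replicate 1 it was 0.65 log2, and without NC06 replicate 2 it was 1.34 log2. In the authors' deposited table the unadjusted p of Pilrb2 was 0.109.

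The 3 PILR genes are neighbours on chromosome 5, and the RefSeq promoter windows of the build GRCm38.p6 show how alike they are. RefSeq windows, which hold 250 bases before and 50 after the annotated start, were matched by symbol for 7 of the 10 members. The PILR windows are printed because these neighbouring genes differed in the same direction, and the capitals mark the stretch of 86 bases that all 3 hold without a difference.
Pilra (chr5:137836229-137836528, minus strand): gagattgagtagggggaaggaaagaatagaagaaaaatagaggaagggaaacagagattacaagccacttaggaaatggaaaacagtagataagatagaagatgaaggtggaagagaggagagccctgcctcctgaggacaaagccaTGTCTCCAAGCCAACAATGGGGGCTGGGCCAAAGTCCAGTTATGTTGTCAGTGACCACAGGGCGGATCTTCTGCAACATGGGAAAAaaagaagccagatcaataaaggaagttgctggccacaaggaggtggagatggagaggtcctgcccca
Pilrb1 (chr5:137858000-137858299, minus strand): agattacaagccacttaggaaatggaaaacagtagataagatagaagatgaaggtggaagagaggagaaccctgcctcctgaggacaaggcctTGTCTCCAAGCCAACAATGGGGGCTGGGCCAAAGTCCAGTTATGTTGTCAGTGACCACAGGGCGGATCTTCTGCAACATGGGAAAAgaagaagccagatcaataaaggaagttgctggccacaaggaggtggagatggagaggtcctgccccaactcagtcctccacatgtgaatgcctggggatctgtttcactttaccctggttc
Pilrb2 (chr5:137871709-137872008, minus strand): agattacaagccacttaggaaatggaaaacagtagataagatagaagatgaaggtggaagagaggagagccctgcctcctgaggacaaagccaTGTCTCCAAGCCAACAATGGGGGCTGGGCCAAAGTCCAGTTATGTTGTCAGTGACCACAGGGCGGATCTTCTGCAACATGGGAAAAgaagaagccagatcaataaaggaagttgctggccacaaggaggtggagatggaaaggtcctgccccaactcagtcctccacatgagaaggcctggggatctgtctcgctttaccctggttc

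Laid side by side without gaps, the Pilra and Pilrb2 windows were identical in 244 of 246 overlapping bases (99.2%). Pilra and Pilrb1 were identical in 242 of 246 (98.4%), and Pilrb1 and Pilrb2 in 292 of 300 (97.3%). The Pilra window is offset by 54 bases from the other PILR windows, since its annotated start lies at another distance from the stretch in capitals. Among the 7 windows, the 18 pairs other than those between PILR genes had an identity of 30.9% to 36.9%. These windows lie mostly before the start, and the transcripts and probe sequences were not compared. Signals of related genes can mix on an array, and whether the probe sets of Pilra, Pilrb1 and Pilrb2 share signal was not tested, so each one's own difference is uncertain.

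Trem1 encodes an activating receptor of neutrophils and monocytes that pairs with DAP12. Its probe set, 17338364, read 8.68 and 8.45 log2 on the NC06 arrays, against 7.16 and 7.24 on the control arrays. All NC06 values were above all control values, with more than 1 log2 between the nearest arrays. The means were 8.57 ± 0.16 log2 in NC06 cells and 7.20 ± 0.061 log2 in control cells (SD, n = 2 each). The difference was 1.37 log2 (SE 0.11, 95% interval from 1.07 to 1.66), or 2.58-fold, with an unadjusted p of 0.000146 and an adjusted p of 0.0793 in limma.

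Trem3, the gene next to Trem1 in the RefSeq order, encodes another DAP12-coupled receptor of the mouse. Its probe set, 17338371, had 6.80 and 6.70 log2 on the NC06 arrays, against 7.05 and 6.88 on the control arrays. It was the member with both NC06 arrays below both control arrays. The difference was -0.22 log2 (SE 0.10, 95% interval from -0.49 to 0.055) and did not pass, at an unadjusted p of 0.0931 and an adjusted p of 0.397 in limma.

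Trem2 encodes the lipid-sensing receptor of macrophages and microglia. Its probe set, 17338416, had 10.07 log2 on each NC06 array, against 9.95 and 9.89 on the control arrays. The groups did not overlap, but the step was small. The difference was 0.15 log2 (SE 0.077, 95% interval from -0.057 to 0.35), or 1.11-fold, at an unadjusted p of 0.118 and an adjusted p of 0.431 in limma. In the authors' deposited table the unadjusted p of Trem2 was 0.0328, which became 0.354 after Benjamini-Hochberg adjustment over that table.

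Tyrobp encodes DAP12, the adaptor that the activating receptors among the members share. Its probe set, 17476364, had 7.03 and 6.92 log2 on the NC06 arrays, against 6.79 and 6.75 on the control arrays. Both NC06 arrays were higher, by a small step. The difference was 0.20 log2 (SE 0.084, 95% interval from -0.025 to 0.43), or 1.15-fold, and it did not pass, at an unadjusted p of 0.0696 and an adjusted p of 0.363 in limma.

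Sirpa, Pirb and Siglece encode inhibitory receptors. Sirpa (probe set 17376167) had 10.16 and 10.21 log2 on the NC06 arrays, against 10.07 and 10.12 on the control arrays. The NC06 values lay just above the control values, and the difference of 0.087 log2 (95% interval from -0.12 to 0.30) had an adjusted p of 0.638 in limma. Pirb (17485589) had 4.68 and 5.05 log2 on the NC06 arrays, against 4.36 and 5.02 on the control arrays. The Pirb difference was 0.18 log2 (95% interval from -0.54 to 0.89), at an adjusted p of 0.791 in limma, and the replicates of each group differed by more than the group means did. Siglece (17490160) had 4.70 and 4.69 log2 on the NC06 arrays, against 5.11 and 4.58 on the control arrays. Its difference was -0.15 log2 (95% interval from -0.67 to 0.37), at an adjusted p of 0.753 in limma, with the NC06 values inside the range of the control values. The Pirb and Siglece differences changed sign without control replicate 1, to -0.15 and 0.11 log2.

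**Figure D2:**
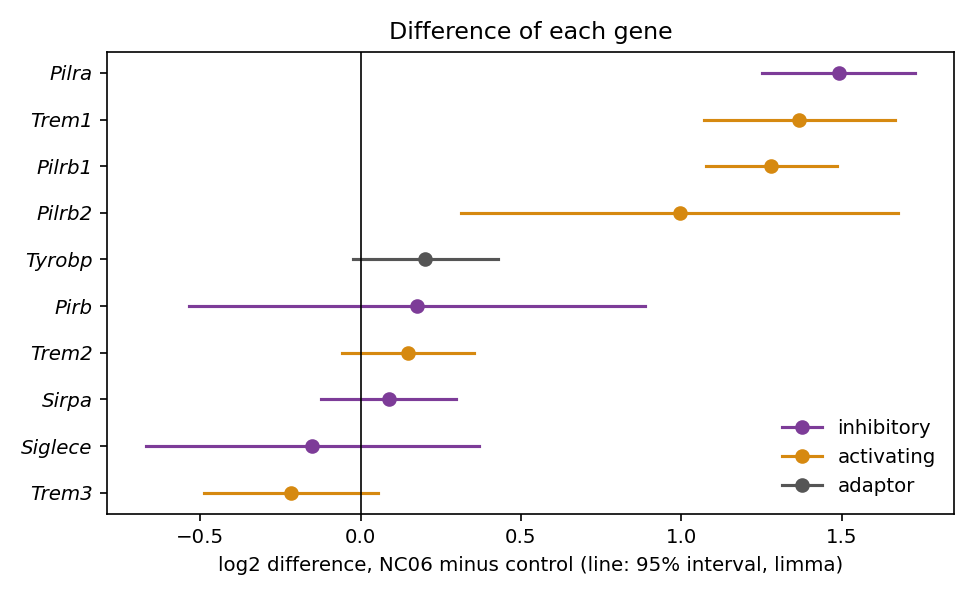
Difference in log2 signal between NC06 and control arrays for each gene, with its 95% interval from limma, coloured by the receptor's role. The intervals of Pilra, Trem1, Pilrb1 and Pilrb2 lie above 0, and those of the other 6 genes include 0.

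Read by role, 3 of the 5 activating receptors and 1 of the 4 inhibitory receptors had an unadjusted p under 0.05, all on the higher side, where 7.79% of all genes were. The median difference was 0.99 log2 over the activating receptors, which is the value of the dim Pilrb2 probe set, and 0.13 log2 over the inhibitory ones. Of these 4 genes 3 are PILR genes, and Pilra is the inhibitory one. Whether the roles differ was not tested.

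The variance of array signals depends on their level, and with 2 arrays per group the calls depend on how that variance is estimated. With a prior that follows the signal and is robust to extreme genes, limma gave adjusted p of 9.44e-05 for Pilra, 0.000413 for Pilrb1, 0.00036 for Trem1 and 0.0482 for Pilrb2. These 4 higher members stand beside 2.44% of all genes called higher in that fit, and 0 members were lower, beside 3.12% of all genes. Among the 13123 genes whose brighter group mean was above the median, Pilra, Pilrb1 and Trem1 were called, 3 of the 8 members tested, against 3.58% of the genes called higher. Pilrb2 entered that set through its NC06 mean. After each array was centred on its median, limma gave adjusted p of 0.044 for Pilra and 0.0477 for Pilrb1. In these fits limma did not call Tyrobp, Trem2, Trem3 or Sirpa.

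The TREM genes lie together on chromosome 17, with Treml4, Treml2 and B430306N03Rik between Trem3 and Trem2. Their RefSeq windows are printed for Trem1 and Trem2, since these relatives differed in their response, with capitals at the letters GAGGAA or their reverse complement, the core bound by the myeloid factor PU.1.
Trem1 (chr17:48232489-48232788, plus strand): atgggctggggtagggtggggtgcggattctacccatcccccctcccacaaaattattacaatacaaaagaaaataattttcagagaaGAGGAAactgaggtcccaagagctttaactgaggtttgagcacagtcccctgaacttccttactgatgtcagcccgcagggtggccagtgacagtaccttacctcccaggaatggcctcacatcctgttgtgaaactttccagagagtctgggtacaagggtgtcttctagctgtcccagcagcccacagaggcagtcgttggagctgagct
Trem2 (chr17:48346151-48346450, plus strand): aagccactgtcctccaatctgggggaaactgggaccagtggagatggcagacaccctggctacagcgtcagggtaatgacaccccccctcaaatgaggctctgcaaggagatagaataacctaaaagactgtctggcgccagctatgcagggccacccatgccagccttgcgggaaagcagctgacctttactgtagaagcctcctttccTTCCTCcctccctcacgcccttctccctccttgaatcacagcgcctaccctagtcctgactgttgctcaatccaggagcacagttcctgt

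The windows of Trem1 and Trem2 were identical in 90 of 283 overlapping bases (31.8%), far from the PILR windows. GAGGAA was found on either strand in 5 of the 7 member windows, including Trem1, Trem2 and Pilra, and in 28.3% of all 32851 windows of this length. TTGCNNAA, a C/EBP core, was found in the 3 PILR windows and in Trem2, and in 10.8% of all windows. GAAANNGAA, part of the interferon-stimulated response element, was found in each PILR window and in no other member window, and in 8.6% of all windows. TGANTCA, a loose form of the AP-1 site that allows any base at its centre, occurred in Trem2 and in 7.8% of all windows. The Trem2 match has an A at the centre, where the AP-1 site has C or G. TGACNNNGC, the NRF2 element, occurred in Pirb and Siglece and in 12.4% of all windows. The NF-kB site and the p53 half-site had no match in the 7 windows, and occurred in 4.5% and 8.4% of all windows. No match of one motif overlapped another. Because the PILR windows are nearly the same sequence, their shared matches count as 1 observation.

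The neighbours of both clusters, read by their position after the data were seen, were measured too. On the flanks of the PILR genes, Zcwpw1 had 5.70 and 5.65 log2 on the NC06 arrays, against 5.87 and 5.84 on the control arrays, a difference of -0.18 log2. On the other flank Cyp3a13 had a difference of 0.052 log2. The 6 flanking genes ran from -0.28 log2 for Ppp1r35 to 0.28 log2 for Azgp1, with the lowest adjusted p in limma at 0.274. In the TREM cluster A530064D06Rik, the tested gene before Trem1, had 5.38 and 5.58 log2 on the NC06 arrays, against 4.68 and 4.77 on the control arrays. Its difference of 0.75 log2 (SE 0.11, adjusted p 0.154 in limma) was the largest among the neighbours of Trem1. Treml4, Treml2 and Treml1, TREM-like receptors, had differences of 0.022, -0.15 and 0.14 log2.

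**Figure D3:**
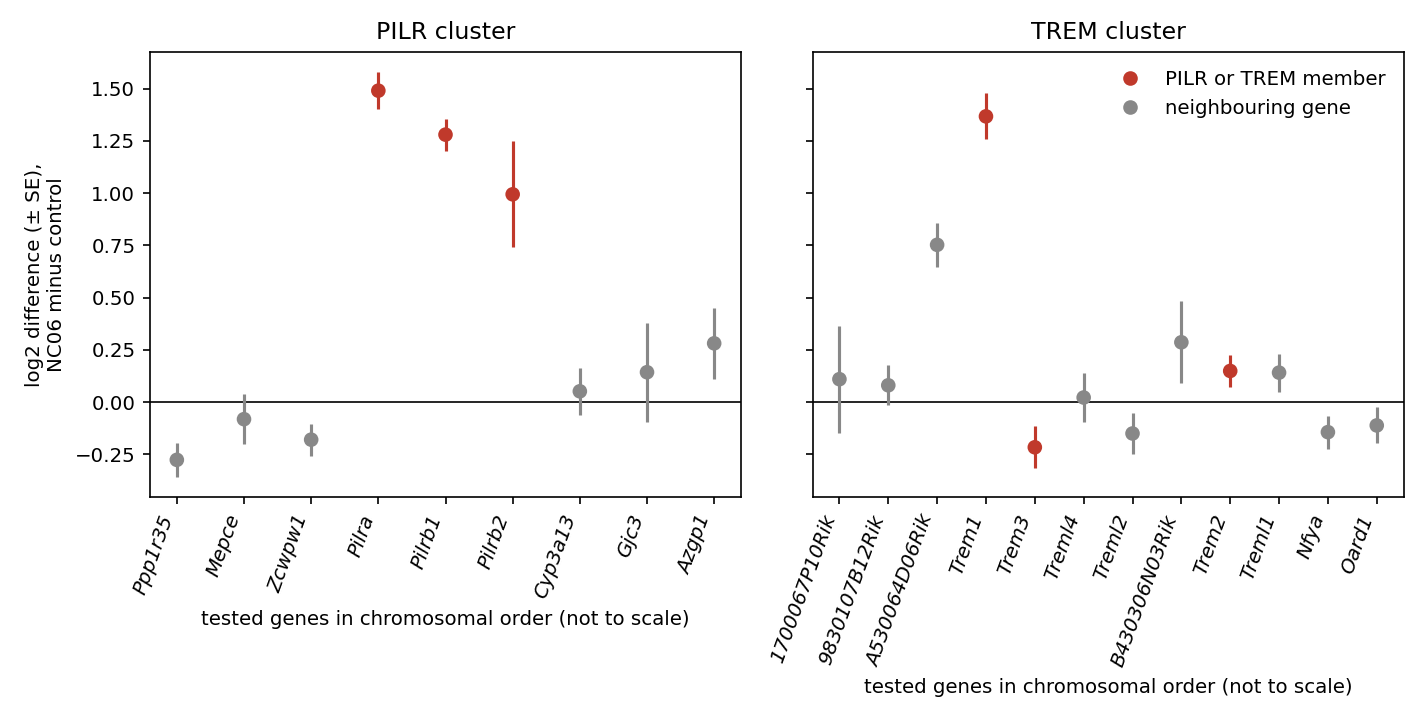
Difference in log2 signal between NC06 and control arrays, with its SE, for the tested genes of the PILR cluster and the TREM cluster in chromosomal order. The 3 PILR genes stand together at 0.99 to 1.49 log2, between flanking genes that run from -0.28 to 0.28 log2. In the TREM cluster Trem1 stands at 1.37 log2, next to A530064D06Rik at 0.75 log2 and Trem3 at -0.22 log2.

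Differences between genes on the same array show unequal change, and 9 such pairs were compared. Trem3 minus Trem1 was -1.88 and -1.76 log2 on the NC06 arrays, against -0.11 and -0.37 on the control arrays, a change of -1.58 log2. Trem2 minus Trem1 was 1.39 and 1.61 log2 on the NC06 arrays, against 2.79 and 2.65 on the control arrays, a change of -1.22 log2. Trem1 thus changed by more than either relative did.

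Set against the adaptor, Trem1 minus Tyrobp changed by 1.17 log2 and Pilrb1 minus Tyrobp by 1.08 log2. Pilrb2 minus Tyrobp changed by 0.79 log2. Trem3 minus Tyrobp was -0.23 and -0.22 log2 on the NC06 arrays, against 0.26 and 0.12 on the control arrays. Trem2 minus Tyrobp changed by -0.053 log2, and the groups overlapped for that pair alone among the 9. Within the PILR pair, Pilrb1 minus Pilra was -1.85 and -1.77 log2 on the NC06 arrays, against -1.63 and -1.57 on the control arrays, a change of -0.21 log2. With 2 arrays against 2, an exact two-sided permutation test cannot go below p = 0.333, the value reached by the 8 pairs without overlap and 0.375 after adjustment over the 9 pairs.

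**Figure D4:**
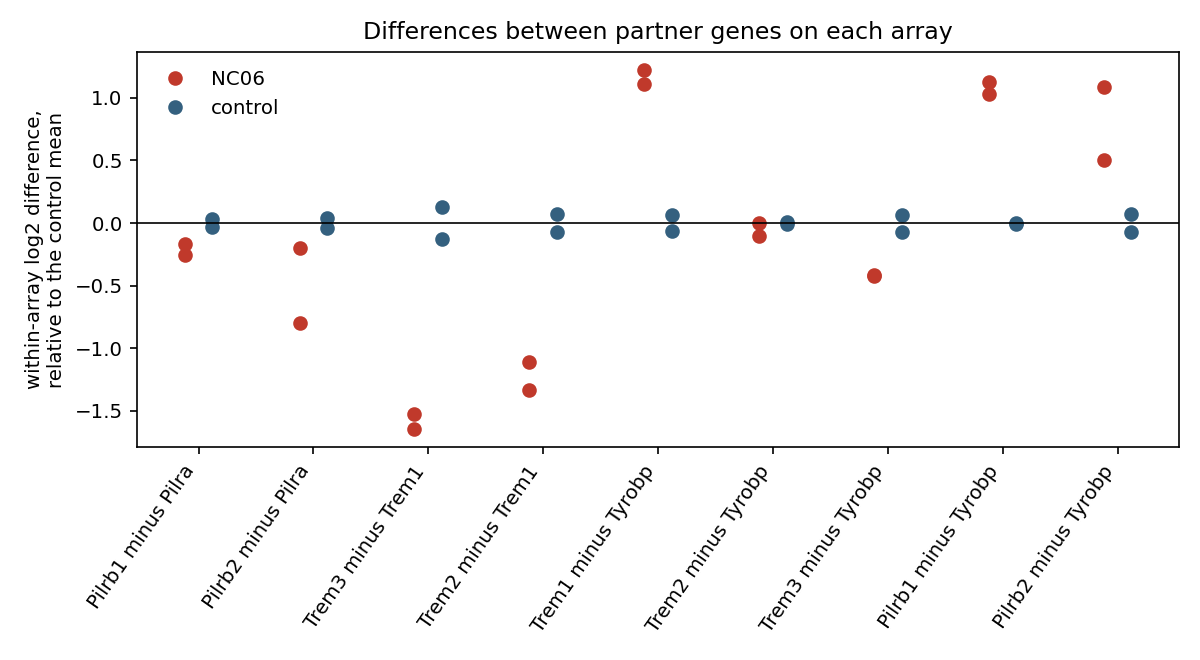
Difference in log2 signal between the first and second gene of each pair on each array, shown relative to the mean of the control arrays. NC06 arrays are left of control arrays in each pair, and they overlap only for Trem2 minus Tyrobp.

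The intracellular partners of these receptors were followed with lists of the ITAM and ITIM pathways, to be read beside the 7.79% of all genes higher, the 7.52% lower and the median of 0.002 log2 given above. Of 24 ITAM signalling genes, 3 were higher and 1 lower at an unadjusted p under 0.05, 0 passed after adjustment, and the median difference was 0.02 log2. Those with the smallest p were the Src-family kinase Fgr, the adaptor Card9 and the adaptor Lat2. Fgr had 5.10 and 4.85 log2 on the NC06 arrays, against 4.61 and 4.46 on the control arrays. Card9 had a difference of -0.29 log2 and Lat2 of 0.24 log2. Syk, the kinase that docks on DAP12, had a difference of 0.064 log2, and Hcst, the related adaptor DAP10, of 0.047 log2.

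Of 9 ITIM effectors, 1 was higher and 1 lower at an unadjusted p under 0.05, 0 passed after adjustment, and the median difference was -0.026 log2. Dok3, an adaptor that restrains signals of immune receptors, had 9.77 and 9.73 log2 on the NC06 arrays, against 8.94 and 8.87 on the control arrays. Its difference of 0.84 log2 (SE 0.079) had an adjusted p of 0.0865 in limma. Ptpn11, which encodes SHP-2, had 8.94 and 8.99 log2 on the NC06 arrays, against 9.21 and 9.25 on the control arrays, a difference of -0.26 log2. Sh2d1b1, an adaptor of the SAP family, had a difference of 0.23 log2, and Ptpn6 of -0.15 log2. The Sh2d1b1 probe set was dim, under the lower quartile of the signals on every array.

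Other receptors of the same kinds were measured for 26 of 36 listed genes. The activating PIR-A genes were among the 10 without a probe set of their own name. At an unadjusted p under 0.05, 9 of the 26 were higher and 3 lower, beside 7.79% and 7.52% of all genes. After adjustment 0 passed, and the median difference was 0.18 log2. Cd300ld and Cd300lb, CD300 receptors of myeloid cells, had differences of 1.55 and 1.03 log2. Cd33, a sialic acid-binding lectin of myeloid cells, had 10.48 and 10.42 log2 on the NC06 arrays, against 9.44 and 9.42 on the control arrays. The Cd33 difference of 1.02 log2 (SE 0.078) had an adjusted p of 0.0758 in limma.

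Further receptors of that list were picked as examples after their values were seen. Siglec1, the sialoadhesin of macrophages, had 6.44 and 6.71 log2 on the NC06 arrays, against 5.30 and 5.60 on the control arrays, a difference of 1.12 log2. Clec5a, a lectin that signals through DAP12, had a difference of 0.46 log2, and Lilrb4a, an inhibitory receptor, of 0.44 log2. On the lower side Clec12a, an inhibitory lectin, had 6.23 and 5.89 log2 on the NC06 arrays, against 7.06 and 7.02 on the control arrays, a difference of -0.98 log2. Limma gave Clec12a an adjusted p of 0.154.

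**Figure D5:**
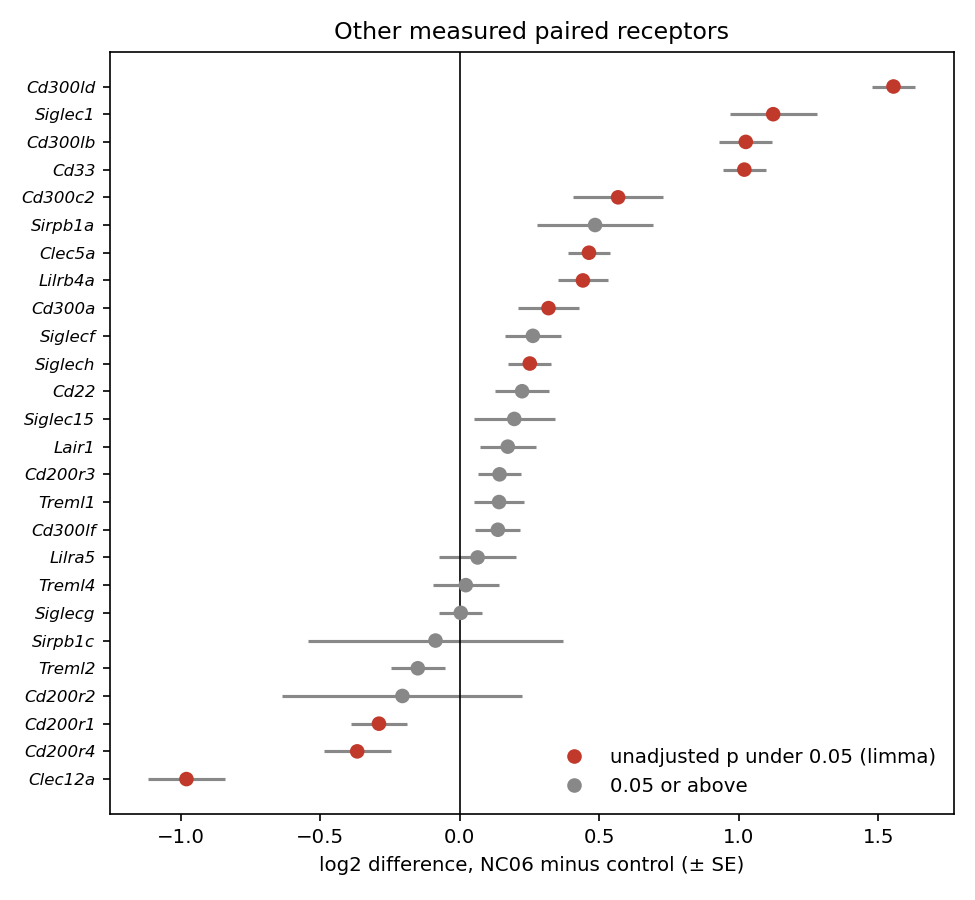
Difference in log2 signal between NC06 and control arrays, with its SE, for the 26 other paired receptors that were measured. Red points have an unadjusted p under 0.05 in limma: 9 above 0, led by Cd300ld at 1.55 log2, and 3 below 0, with Clec12a lowest at -0.98 log2.

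Ligands and enzymes that make them were measured for 23 of 25 listed genes, and Cd99, a PILR ligand, was not analysed here. At an unadjusted p under 0.05 there were 5 higher and 0 lower genes, beside 7.79% and 7.52% of all genes. After adjustment 0 passed in limma, and the median difference was 0.12 log2. St3gal1, a sialyltransferase, had 9.40 and 9.42 log2 on the NC06 arrays, against 8.79 and 8.85 on the control arrays. Lgals3, which encodes galectin-3, had a difference of 0.73 log2. Cd47, which encodes the ligand of SIRP-alpha, had 9.59 and 9.53 log2 on the NC06 arrays, against 9.23 and 9.31 on the control arrays, a difference of 0.29 log2.

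Of 20 lipid and phagocyte genes listed here for TREM2, 7 were higher and 3 lower at an unadjusted p under 0.05. The shares of all genes were 7.79% and 7.52%. The list had a median of 0.19 log2 and 0 genes past the adjusted threshold. Whether its genes depend on TREM2 in these cells was not tested. Itgax, the integrin CD11c, had a difference of 1.46 log2, Lgals3 of 0.73 log2 and Clec7a, the lectin dectin-1, of -0.60 log2. Of 7 genes of receptor shedding, 2 were higher and 0 lower, beside the same shares of all genes, with a median of 0.14 log2. Mmp9, gelatinase B, had a difference of 2.05 log2, the protease regulator Rhbdf2 of 0.44 log2 and Adam17, a protease that sheds receptors, of 0.17 log2.

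With the trend and robust prior, limma called some genes of these lists after adjustment, beside 2.44% of all genes higher and 3.12% lower. They were 6 higher and 1 lower of the other paired receptors, 8 and 2 of the genes listed for TREM2 and 3 and 0 of the ligands. Of the shedding genes they were 2 and 0, of the ITIM effectors 1 and 1 and of the ITAM genes 0 and 1. Among the markers they were 6 higher and 0 lower for macrophages, 5 and 0 for neutrophils, 1 and 0 for osteoclasts (Mmp9), 1 and 0 for T cells (Cd28), 0 and 1 for B cells (Ighm), 1 and 0 for dendritic cells (Itgax) and 0 and 0 for NK cells. Cd300ld, Cd33, Cd300lb, Siglec1 and Clec12a were among those called, while Fgr and Lat2 were not.

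Markers of myeloid cells also differed between the groups, alongside Pilra, Pilrb1 and Trem1. Of all genes, 7.79% were higher and 7.52% lower at an unadjusted p under 0.05. Of the 12 neutrophil markers, 6 were higher and 1 lower at that p, with 0 past the adjusted threshold. Their mean level was 5.95 and 5.83 log2 on the NC06 arrays, against 5.16 and 5.26 on the control arrays. Mmp8, Ly6g and S100a8 had differences of 2.89, 1.38 and 1.48 log2, while Mpo, Elane and S100a9 stayed below the median signal in both groups. Of the 12 macrophage markers, 5 were higher and 0 lower, and their mean was 9.06 and 9.05 log2 on the NC06 arrays, against 8.71 and 8.68 on the control arrays. Lyz2, Adgre1 and Itgam led with 1.21, 0.88 and 0.84 log2. The part of these markers in the receptor differences was not tested.

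The lists of other lineages were read beside the same 7.79% of all genes higher and 7.52% lower. No test compared the lists with each other. The 10 osteoclast markers had a median of -0.016 log2, and 1 was higher and 0 lower at an unadjusted p under 0.05. The one was Mmp9, and Ocstamp and Atp6v0d2 had differences of -0.29 and -0.20 log2. NK cell markers had a median of -0.13 log2 over 7 genes, with 0 higher and 1 lower, Klrd1 at -0.39 log2, next to Eomes at -0.35 and Klrb1c at -0.21 log2. T cell markers had 2 higher and 1 lower of 7, with Cd28 at 0.51, Lck at -0.42 and Cd8a at 0.50 log2, and B cell markers 0 higher and 2 lower of 6, with Ighm at -0.39 and Ms4a1 at -0.35 log2. Dendritic cell markers had 2 of 7 higher, Itgax and Siglech, with Xcr1 next at 0.087 log2. Klrd1, Ms4a1 and Atp6v0d2 were dim, under the lower quartile of the signals on every array, which limits what their differences can show. Klrb1c was dim too, at 3.27 and 3.73 log2 on the NC06 arrays, against 3.78 and 3.63 on the control arrays. In the limma fit without the trend 0 of the genes in these lists passed after adjustment.

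Genes whose values over the 4 arrays ran most closely with those of Tyrobp and of Pilra, the member with the largest difference, were sought among the 13123 genes with a mean above the median. The measure was the root mean square deviation between values centred on each gene's mean. For Tyrobp these were Slc33a1, Col23a1 and Crybb1, at deviations of 0.0075, 0.0088 and 0.0099 log2. For Pilra they were Tm4sf1, S100a8 and Ifitm6, at 0.041, 0.044 and 0.048 log2. S100a8 had 6.52 and 6.36 log2 on the NC06 arrays, against 5.06 and 4.85 on the control arrays. With 4 arrays such likeness is a description.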

How the data were processed

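RNA of 4 J774M samples was measured on whole-transcript Affymetrix arrays, biotin-labelled per the labels' protocols. The deposited log2 signals came from Partek, as the submitters' processing notes record. Its version and its steps for background, normalization and summarization are not given in the sources used here. A second deposited table holds the NC06 to control ratio per same-numbered pair and of the group means, beside a p-value. Its ratios equalled the value table's log2 differences to within 8.8e-05, which settles scale and direction.

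Probe sets took the platform's single gene (23521) or, where it listed none, the deposited symbol if RefSeq (GRCm38.p6, names only) held it (4311). This gave 27832 probe sets and 26246 genes, the brightest probe set standing for a gene. Limma 3.58.1 in R 4.3.3 (lmFit, eBayes, two-sided, Benjamini-Hochberg over all genes, threshold 0.05) was run on the values as deposited, with 2 residual and 2.36 prior degrees of freedom, and was tested on simulated data. Python 3.11.15, pandas 2.3.3 and numpy 2.4.6 made the tables.

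The members and lists were chosen with earlier results of these data known. Genes named are the members, the 3 of each list with the smallest p, and the 3 closest in pattern to Tyrobp and to the member with the largest difference. Of these, 1 marker gene is not reported here. Others are examples picked after their values were seen. Alternatives were other normalizations, signal filters, a trend and robust prior, other probe set rules, a replicate block, leaving out each array, platform names alone and the deposited p-values.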

Additional observations from a re-analysis of the deposited data

How the results depend on the processing

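The count of members called after adjustment depended on the fit. It was 0 as reported, 2 after median centring, 3 with names from the platform annotation alone, 3 without the lowest signal quartile, 3 without the genes below the median signal, 3 at an adjusted p under 0.10 and 4 with the trend and robust prior. Those fits without the dim genes or the unlisted names test fewer genes, and the cause of the other shifts was not tested. It was 0 with quantile normalization, either other probe set rule, the replicate block and the deposited p-values. It was also 0 without any 1 array, where the lone array is assumed to vary like the other group and 1 residual degree of freedom is left, so that count says nothing about stability. Apart from the fits without 1 array, the number at an unadjusted p under 0.05 was 4 to 6 in every alternative. The genes were not always the same. The authors' deposited unadjusted p was 0.109 for Pilrb2 and 0.0328 for Trem2, so Trem2 was counted there and Pilrb2 was not. The replicate block gave 0 members called and 4 at an unadjusted p under 0.05. The deviations of same-numbered arrays had a correlation of 0.032 across genes, and the labels give the number no other meaning, so it was not taken as a pairing.

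Among the recomputed member differences, 120 kept direction and side of the threshold, 15 passed it where the reported one did not, and 3 changed sign. Only the normalizations and leaving out an array could move a difference. With 1 probe set per member, the other settings return the same difference by construction and can alter only its p. The tally is therefore no measure of stability. Leaving out 1 array gave Pirb values from -0.15 to 0.50 log2 and Siglece values from -0.41 to 0.11 log2. The change of Trem2 minus Tyrobp ran from -0.11 to 0.0015 log2. Over the normalizations and left-out arrays Pilra ran between 1.43 and 1.54 log2, Pilrb1 between 1.22 and 1.30, Trem1 between 1.25 and 1.48 and Pilrb2 between 0.65 and 1.34. Median centring moved the median of all genes to -0.054 log2. The dim probe sets of Pilrb2, Pirb and Siglece limit what can be said of them.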
